A study of Mus musculus with 6 samples.

Results

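The Cyp4a genes and their neighbour Cyp4b1 encode cytochrome P450 enzymes of the endoplasmic reticulum that add a hydroxyl group at or next to the far end of a fatty acid chain. The 7 genes described here are Cyp4a10, Cyp4a12a, Cyp4a12b, Cyp4a14, Cyp4a31, Cyp4a32 and Cyp4b1. They were followed through every non-control array probe whose transcript accession belongs to 1 of them, which gave 11 probes of 55681 on the array, and 7 genes of 20284 with a named probe. All 11 probes were well above background on all 6 arrays, so none was lost to a filter on dim signals. The genes had been chosen from the same 20-month against 2-month contrast of log2 processed signal that is given below, and no threshold entered the choice. Their age differences are therefore a description, with no test and no p-value.

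Total RNA came from whole kidneys of male C57BL/6 mice aged 20 months (aged, 3 samples) and 2 months (young, 3 samples), and neither age carried a treatment or an engineered allele in the labels. C57BL/6 is the common inbred laboratory strain. Each sample was hybridised with a single dye, Cy3, to 1 Agilent array, and the question was how kidney expression differs with age. The submitters named 3 independent RNA sets per age without naming individual animals, so any p-value reflects variation among these preparations, some of which may be technical.

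In mouse kidney the Cyp4a enzymes are known mainly from the proximal tubule, where they hydroxylate medium- and long-chain fatty acids and, for some members, arachidonic acid. The hydroxylated arachidonic acid made in this way constricts small renal vessels and alters salt transport. Alcohol and aldehyde dehydrogenases carry the hydroxylated fatty acids on to dicarboxylic acids, which peroxisomes shorten. Several Cyp4a genes are classical targets of the fatty acid receptor PPAR-alpha, which binds DNA with the retinoid X receptor, and Cyp4a12a is known for its higher, androgen-dependent level in male mouse kidney.

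Aged arrays had 75th percentiles of 4092, 3780 and 2412 units of processed signal, against 3953, 3654 and 2591 for young arrays, and no spot was saturated. The share of probes well above background was 62.8, 55.6 and 46.2% on aged arrays, against 72.8, 68.9 and 55.2% on young arrays. In each slide column the aged array had the lower share, and its part in the values of dim genes was not tested. Every level below is the processed signal divided by that array's 75th percentile, and every difference is aged minus young on the log2 scale. Across all genes, 517 of 14542 tested passed limma's test at an adjusted p of 0.05 (3.56%), of which 300 were higher (2.06%) and 217 lower (1.49%) in aged kidney, and the median difference was -0.01. All arrays lay on 1 slide. Aged arrays occupied row 2 of it and young arrays row 1, so the row and the age of the mice cannot be told apart. Precision is limited by having 3 arrays per age.

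In the gene order of the RefSeq annotation of build GRCm38.p6, the members lie on chromosome 4 as Cyp4a12a, Cyp4a12b, Cyp4a14, Cyp4a10, Cyp4a31, Cyp4a32 and Cyp4b1, with pseudogenes and the genes Cyp4a29, Cyp4a30b and Cyp4x1 in the same stretch. The array grid was annotated on build mm9, so no gene coordinates are given. RefSeq promoter entries were at hand for 2 of the 7 members, Cyp4a32 and Cyp4b1, which are next to each other in that order. The 250 bases before each start are shown because Cyp4a32 was lower on every aged array while the ages overlapped for its neighbour Cyp4b1. They run 5′ to 3′ on the gene's own strand, with matches to any motif searched in capitals. In build GRCm38.p6 the Cyp4a32 stretch is chr4:115600688-115600937 on the plus strand, and the Cyp4b1 stretch is chr4:115647722-115647971 on the minus strand.
Cyp4a32: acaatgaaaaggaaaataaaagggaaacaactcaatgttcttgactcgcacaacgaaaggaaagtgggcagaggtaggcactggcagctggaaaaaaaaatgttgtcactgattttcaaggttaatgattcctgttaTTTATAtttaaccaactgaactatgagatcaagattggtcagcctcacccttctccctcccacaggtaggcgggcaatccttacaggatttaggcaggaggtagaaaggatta
Cyp4b1: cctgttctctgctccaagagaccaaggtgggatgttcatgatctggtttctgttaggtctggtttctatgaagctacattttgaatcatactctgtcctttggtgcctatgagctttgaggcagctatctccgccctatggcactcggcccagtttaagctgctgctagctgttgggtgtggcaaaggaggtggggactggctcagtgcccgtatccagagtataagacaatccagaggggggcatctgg

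Both strands of each stretch were searched for 3 motifs. The nuclear receptor half-site AGGTCA had 0 matches in either stretch and occurs in 14.0% of 32817 upstream regions of the same length. A repeat of AGGNCA after 1 base, the arrangement PPAR-alpha and its partner bind, had 0 matches in either and occurs in 0.338% of regions. TATAAA matched once in Cyp4a32, on the minus strand at base -113, and occurs in 12.4% of regions. TATAAA had 0 matches in the Cyp4b1 stretch. The base composition was 41.6% GC for Cyp4a32 and 51.6% GC for Cyp4b1, beside a median of 52.4% over all upstream regions. These matches describe letters only, and their absence says nothing of a factor elsewhere.

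The hydroxylases of this cluster did not share 1 direction. The 2 Cyp4a12 genes were higher on every aged array, by 2.00-fold and 1.86-fold. Cyp4a14 was 2.28-fold lower in aged kidney, and Cyp4a32 1.64-fold lower, with no overlap between the ages. Cyp4a10, Cyp4a31 and Cyp4b1 were slightly lower by their brightest probe, with overlapping ages. Dimmer probes of Cyp4a10 and Cyp4a31 included some without overlap, with log2 differences of -0.62 and -0.78 for the third probe of each. In whole-kidney RNA, fewer cells of a type and less RNA per cell cannot be told apart.

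Cyp4a12a and Cyp4a12b are near-identical genes, and in the mouse the Cyp4a12 enzymes are the main arachidonic acid omega-hydroxylases of the male kidney. The Cyp4a12a probe read 19.9, 17.2 and 20.8 times the 75th percentile in the 3 aged samples, against 8.16, 10.4 and 10.4 times in the 3 young samples. The lowest aged sample was well above the highest young one. On the log2 scale the means were 4.27 ± 0.14 in aged and 3.27 ± 0.20 in young kidney (SD, n = 3 each), a difference of 1.00.

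The Cyp4a12b probe read 11.2, 12.7 and 12.4 in aged samples, against 5.49, 7.06 and 7.14 in young samples. All aged samples were again above all young ones, and young replicate 1 was the lowest array for both genes. The log2 means were 3.60 ± 0.10 in aged and 2.70 ± 0.21 in young kidney (SD, n = 3 each), a difference of 0.89. Probe sequences were not used here, so signal shared between these paralogs was not measured. The difference of the 2 probes' log2 values, which does not depend on array scaling, was 0.27, -0.13 and 0.18 on the aged arrays and 0.01, 0.00 and -0.01 on the young arrays, taken relative to the young mean. The pair therefore kept a nearly constant ratio across young samples and a more variable one across aged samples, with aged replicate 2 the lowest in Cyp4a12a and the highest in Cyp4a12b.

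Cyp4a14, a fatty acid hydroxylase that PPAR-alpha agonists strongly induce in mouse liver and kidney, ran the other way. Its probe read 1.63, 2.26 and 1.83 in aged samples, against 4.07, 4.42 and 4.46 in young samples. No aged sample reached the lowest young one. The log2 means were 0.92 ± 0.24 in aged and 2.11 ± 0.07 in young kidney (SD, n = 3 each), a difference of -1.19. The difference of Cyp4a12a was above that of Cyp4a14 by 2.19 on the log2 scale (SD 0.37 over the aged arrays and 0.13 over the young arrays), a comparison in which the array scaling cancels.

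**Figure D1:**
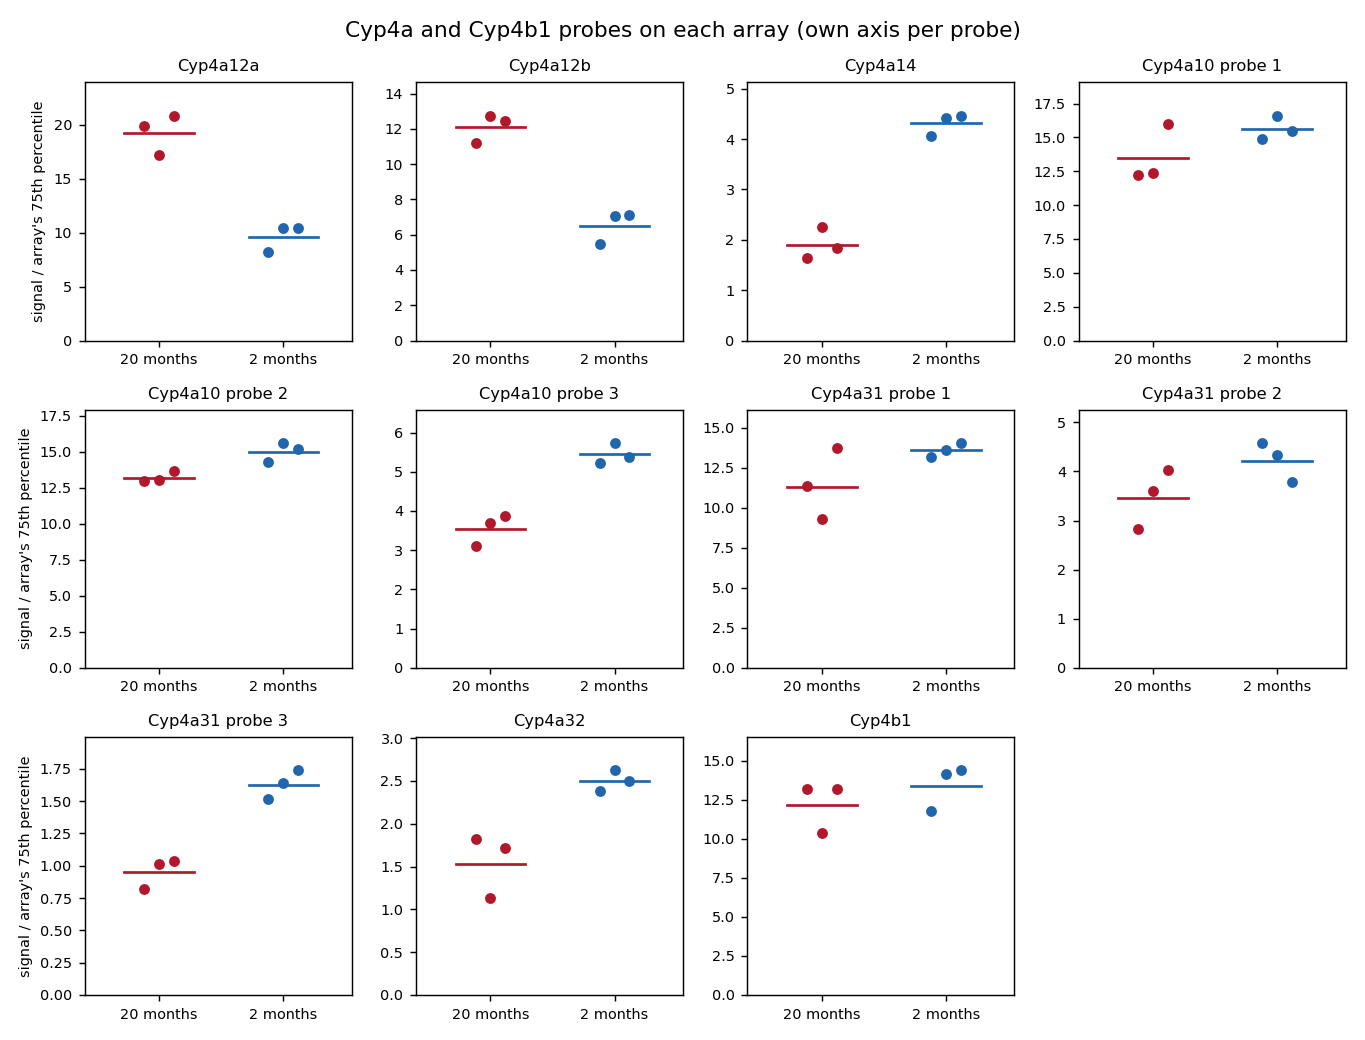
Processed signal divided by the array's 75th percentile (vertical axis, linear and starting at 0, own scale for each panel) for the 11 member probes in the 3 samples at 20 months and the 3 at 2 months. Points are arrays and lines are means taken on the log2 scale. The Cyp4a12a and Cyp4a12b points at 20 months lie above those at 2 months, the Cyp4a14 and Cyp4a32 points lie below, and the ages overlap for Cyp4b1.

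Cyp4a10, the other classical PPAR-alpha-responsive member, was read by 3 probes, all lower on average in aged kidney but to different degrees. Its brightest probe read 12.2, 12.4 and 16.0 in aged samples, against 14.9, 16.6 and 15.5 in young samples. The ages overlapped, since aged replicate 3 lay above young replicates 1 and 3, and the difference was -0.22, or -0.34 without aged replicate 3. The second probe read 12.9, 13.0 and 13.7 in aged samples, against 14.3, 15.6 and 15.2 in young samples. Here every aged sample was below every young one, by a small difference of -0.18. The third probe read 3.11, 3.69 and 3.88 in aged samples, against 5.22, 5.73 and 5.39 in young samples. The ages were clearly apart, with a difference of -0.62. By size of change the probes of this gene thus disagree, and the first exceeded the third by 0.40 (SD 0.16 aged, 0.01 young). Over the 6 arrays the third probe followed the third probe of Cyp4a31 (Pearson r = 0.989) more closely than its own gene's first and second probes (0.783 and 0.948). Signal shared among Cyp4a10, Cyp4a31 and Cyp4a32 was not measured, so the values of these genes are those of probes and may not be specific to 1 gene.

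Cyp4a31 is a close relative of Cyp4a10, named a hydroxylase by its sequence. Its brightest probe read 11.4, 9.27 and 13.7 in aged samples, against 13.2, 13.6 and 14.0 in young samples, a difference of -0.26. The ages overlapped through aged replicate 3, and leaving out aged replicate 2 or 3 gave differences of -0.12 or -0.40. The second probe read 2.84, 3.60 and 4.03 in aged samples, against 4.58, 4.34 and 3.78 in young samples, a difference of -0.29, which overlapped and was -0.15 without aged replicate 1. The third probe read 0.816, 1.01 and 1.04 in aged samples, against 1.51, 1.64 and 1.74 in young samples. These ages did not overlap, and the difference was -0.78, larger than that of the first probe by 0.51 in size.

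Cyp4a32, the third gene of this closely related group, had 1 probe, which read 1.82, 1.13 and 1.72 in aged samples, against 2.39, 2.62 and 2.50 in young samples. All aged samples were below all young ones, and aged replicate 2 was much the lowest array. The log2 means were 0.61 ± 0.37 in aged and 1.32 ± 0.07 in young kidney (SD, n = 3 each), a difference of -0.71. The young samples were close together and the aged ones were not, so the size of this difference leans on 1 array and was -0.50 without aged replicate 2.

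Cyp4b1, which acts on shorter fatty acids and bioactivates some foreign compounds, read 13.2, 10.4 and 13.2 in aged samples, against 11.8, 14.2 and 14.4 in young samples. The ages overlapped, with young replicate 1 below 2 of the aged samples. The difference was -0.14, and -0.02 without aged replicate 2. Relative to Cyp4b1 on the same arrays, the difference of Cyp4a12a was higher by 1.14 (SD 0.07 aged, 0.05 young).

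Of the 11 probes, 2 were higher and 9 lower in aged kidney, and 7 had ages that did not overlap (2 with all aged arrays above and 5 with all below). Over all probes tested, 20.9% had ages that did not overlap, 8.23% with the aged arrays above and 12.6% with them below. By 1 probe a gene, the brightest, 2 genes had all aged arrays above, 2 had all below and 3 overlapped, beside 21.4% without overlap over all genes (9.83% above and 11.6% below). The median over these 7 probes was -0.22, beside -0.01 over all genes tested, and leaving out aged replicate 2 or 3 gave -0.12 or -0.34. Since this contrast chose the members, nothing is read from these counts. Replicate number and slide column coincide in the labels and headers, and within the 3 slide columns Cyp4a12a differed by 1.29, 0.72 and 0.99, and Cyp4a14 by -1.32, -0.97 and -1.28. Cyp4a10's brightest probe, Cyp4a31's second probe and Cyp4b1 changed sign between columns.

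**Figure D2:**
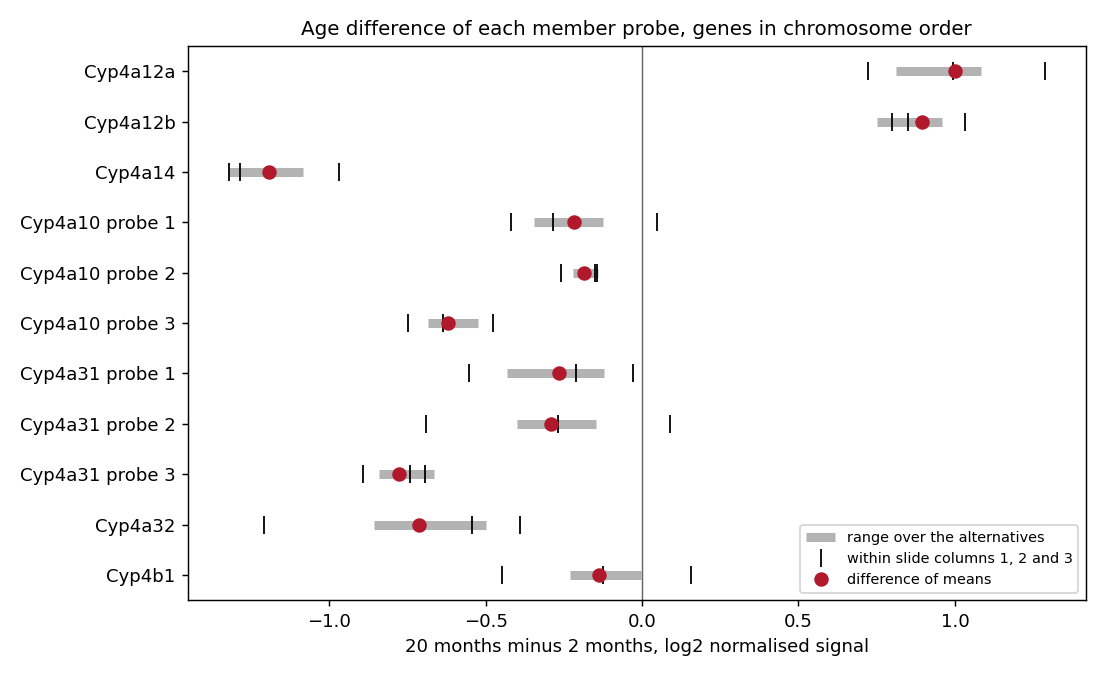
Difference of log2 normalised signal, 20 months minus 2 months (horizontal axis), for each member probe, with genes down the page in chromosome order. Red points are differences of the age means, black ticks the differences within slide columns 1, 2 and 3, and grey bars the range over the alternatives that keep a probe apart. Values run between 1.00 for Cyp4a12a and -1.19 for Cyp4a14, and probes of Cyp4a10 and of Cyp4a31 differ in size.

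The known home of these enzymes, the proximal tubule, was well represented at both ages. Of 16 proximal tubule markers 15 were tested, and 0 were called by limma at an adjusted p of 0.05, with 2 at an unadjusted p under 0.05. Their median difference was -0.01, and their summed level spanned 202 to 246 in aged and 214 to 230 in young samples. Over all genes, 2488 of 14542 tested had an unadjusted limma p under 0.05. Of the other kidney markers, limma called 0 of 6 podocyte, 0 of 5 thick ascending limb and 0 of 6 collecting duct genes, with 0, 1 and 4 at an unadjusted p under 0.05. All 5 thick ascending limb differences were below 0, while 47.1% of all genes tested had differences above 0. The thick limb sum was 60.4 to 67.7 in aged and 67.8 to 70.9 in young samples. All 6 collecting duct differences were below 0 too, and that list's summed level spanned 12.5 to 16.8 in aged and 16.2 to 18.3 in young samples. Among markers of cells that could be carried along, the hepatocyte sum was 33.3 to 37.2 in aged and 34.7 to 38.5 in young samples. Ttr, also on the list of female-biased kidney genes, gave 13.0, 12.8 and 13.3 of it in aged samples. In young samples Ttr gave 15.1, 16.3 and 17.5, so the sum is no measure of hepatocytes alone. The defining hepatocyte genes Cps1 and Cyp7a1 were above background on no array. Of 8 tested, Apob was called higher and 4 had an unadjusted p under 0.05, with 3 differences above 0 and 5 below. Alb, above background on all arrays, had 0.77 (limma adjusted p = 0.138). Apoa1, above background on young arrays alone, had -0.79 (limma adjusted p = 0.106). The adrenal genes Cyp11a1 and Cyp11b1 were above background on no array, while 1 of the 3 tested adrenal genes, Mc2r, was called higher. Of these 3, 2 had an unadjusted p under 0.05, with 1 difference above 0 and 2 below. The summed adrenal level spanned 0.309 to 0.413 in aged and 0.321 to 0.412 in young samples.

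Genes around the family were read from 7 lists of 167 genes, of which 149 were tested and 11 passed limma's test (6 higher, 5 lower in aged kidney), 7.38% beside 3.56% over all genes. These genes were not picked by the rule that gave the members, although the lists were drawn up with earlier results of these data known.

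Of 15 other Cyp4 genes 8 were tested, and 1 rose. Cyp4f15, of the Cyp4f subfamily of fatty acid and leukotriene hydroxylases, read 0.0910, 0.158 and 0.137 in aged samples, against 0.0346, 0.0255 and 0.0148 in young samples. All aged samples were above all young ones, but the probe was above background on only 2 of the 3 young arrays and met the filter on dim signal through the aged arrays alone. It rose by 2.41 ± 0.32 on the log2 scale (SE, limma adjusted p = 0.00956), a size that partly rests on signal near background and was 1.61 with normexp background correction. It missed the threshold without aged replicate 2 (limma adjusted p = 0.0504) and without young replicate 3 (0.0521). The other 7 did not pass, among them Cyp4v3 with a difference of 0.37. Cyp4f41-ps, above background on 1 of the 3 aged arrays, had a value of -0.73 that was -0.14 with normexp and -1.16 with quantile normalisation, so its size is not settled. The median of the list was 0.15.

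The PPAR-alpha targets, genes of fatty acid uptake and oxidation in peroxisomes and mitochondria, mostly stayed short of the test. Of 50 listed 48 were tested, 1 rose, 1 fell and 46 did not pass. Their median was -0.12 beside -0.01 over all genes, and leaving out aged replicate 2 or 3 gave medians of -0.07 or -0.16. Of the 48 differences 34 were below 0 and 14 above, beside 47.1% above 0 over all genes tested. Ucp3, a mitochondrial carrier of the uncoupling protein family, read 0.971, 0.888 and 0.971 in aged samples, against 1.63, 1.43 and 1.60 in young samples. It fell by 0.72 ± 0.11 (SE, limma adjusted p = 0.0154), but it was read by the only 1 of its probes that met the filter on dim signal, and the mean over all its probes gave 0.25. Without aged replicate 2, young replicate 1 or young replicate 3 the limma adjusted p of Ucp3 was 0.0652, 0.0777 and 0.0963. Creb3l3, a membrane-bound transcription factor of lipid metabolism, read 0.0647, 0.0698 and 0.106 in aged samples, against 0.0254, 0.0327 and 0.0362 in young samples. It rose by 1.33 ± 0.21 (SE, limma adjusted p = 0.0177), a size that partly rests on dim young signal. Leaving out the same 3 arrays gave Creb3l3 limma adjusted p-values of 0.0631, 0.0560 and 0.0838, and normexp background correction gave 0.95 on the log2 scale (0.175).

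Pdk4, the pyruvate dehydrogenase kinase, read 1.74, 1.58 and 1.83 in aged samples, against 4.0, 2.93 and 2.41 in young samples. The ages did not overlap, but its difference of -0.83 ± 0.18 missed the threshold (SE, limma adjusted p = 0.0519). It passed in 4 of the 16 alternatives, with limma adjusted p-values of 0.0400 with normexp, 0.0165 with median centring, 0.0241 among probes above background on all 6 arrays and 0.00911 with a trended variance. Textbook targets of peroxisomal and mitochondrial oxidation did not pass either, with differences of -0.37 for Ehhadh, -0.31 for Acadm and 0.09 for Cpt1a. Fabp1, a fatty acid binding protein, had 0.62. The lipid droplet gene Cidec had 1.71 (limma adjusted p = 0.121) and is also an adipocyte marker. All 9 tested adipocyte markers had differences above 0, beside 47.1% over all genes tested. Their summed level was 46.6 to 49.5 in aged and 28.5 to 45.7 in young samples, with 1 call, Plin4 (1.78). Their part in the list's values was not tested.

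Among 23 nuclear receptors and cofactors 1 fell and 22 did not pass. Ppard, the delta form of PPAR, read 2.13, 1.99 and 2.19 in aged samples, against 5.48, 4.11 and 3.34 in young samples. Aged samples were all lower, and it fell by 1.00 ± 0.18 (SE, limma adjusted p = 0.0259). The call did not survive leaving out any 1 array but aged replicate 1, with limma adjusted p-values between 0.0560 and 0.109 (0.109 and 0.0749 without aged replicates 2 and 3, and 0.0560, 0.0772 and 0.0569 without young replicates 1, 2 and 3). Ppara, the receptor for which Cyp4a10 and Cyp4a14 are marker targets, read 4.69, 4.42 and 5.39 in aged samples, against 4.19, 4.77 and 4.97 in young samples. Those ages overlapped, with a difference of 0.06 ± 0.13 (SE, limma adjusted p = 0.874).

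Its partner Rxra differed by -0.05, the tubule and liver regulator Hnf4a by 0.07, Pparg by 0.27 and Nr1i3 by -0.19, none past the threshold. The list's median was 0.07.

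**Figure D3:**
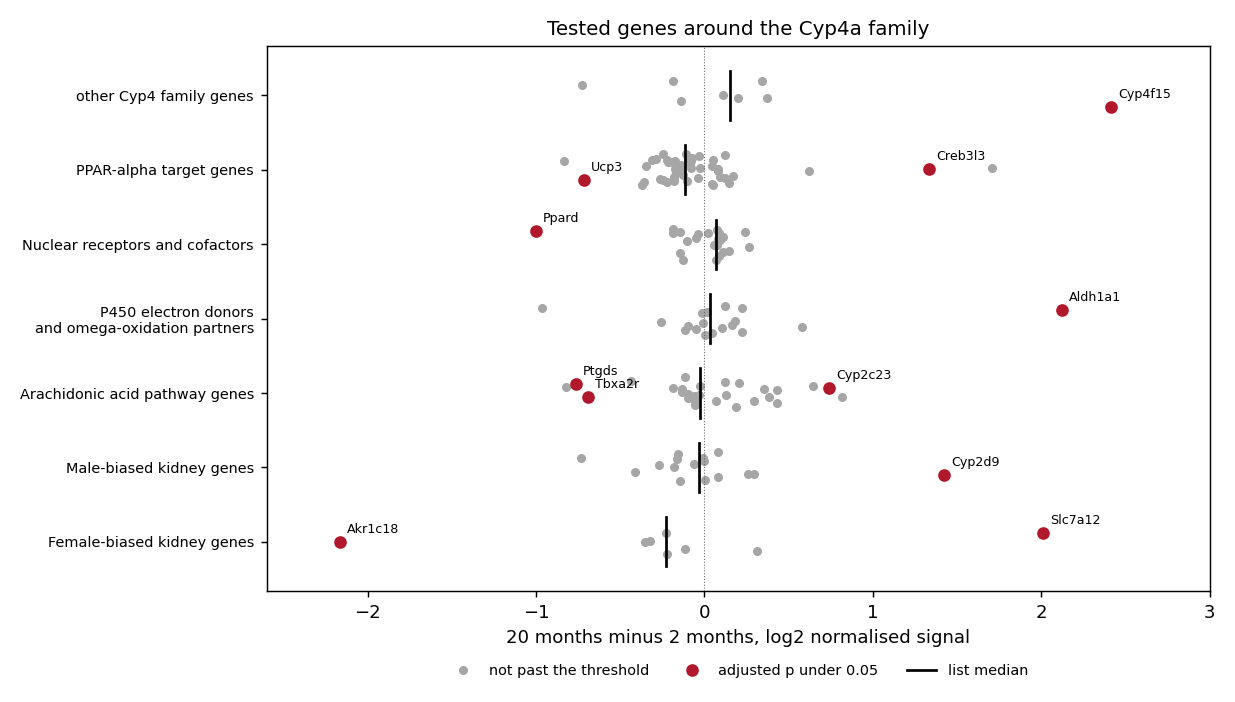
Difference of log2 normalised signal, 20 months minus 2 months (horizontal axis), for the tested genes of the 7 lists (rows), with genes past limma's adjusted p of 0.05 in red, the rest in grey and each list's median as a black line. Most of the 149 genes lie near 0, and the 11 that passed lie on both sides.

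Among the electron donors of P450 and the enzymes that finish omega-oxidation, 1 of 18 tested genes rose and 17 did not pass, with a median of 0.03. Aldh1a1, an aldehyde dehydrogenase that oxidises retinal and lipid aldehydes, read 4.13, 5.07 and 4.59 in aged samples, against 1.06, 1.04 and 1.05 in young samples. The ages were far apart with little spread within either. It rose by 2.12 ± 0.12, or 4.36-fold (SE, limma adjusted p = 0.000336). Por, the reductase that supplies electrons to every microsomal P450, differed by 0.22. Aldh3a1 had a difference of -0.97 (limma adjusted p = 0.0640), Aldh3b1 0.22 and the desaturase Fads1 -0.26 (-0.12 without aged replicate 2), and none of these passed. Aldh3a1 did pass in 4 of the 16 alternatives, with limma adjusted p-values of 0.00712 with median centring, 0.0286 among probes above background on all 6 arrays, 0.0307 with a trended variance and 0.0198 without young replicate 2.

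Of 34 arachidonic acid genes 28 were tested, and 1 rose, 2 fell and 25 did not pass, with a median of -0.03. The gene listed as Cyp2c44, now Cyp2c23, encodes an arachidonic acid epoxygenase and read 5.43, 4.44 and 6.63 in aged samples, against 3.19, 3.12 and 3.46 in young samples. All aged samples were higher, and it rose by 0.74 ± 0.16 (SE, limma adjusted p = 0.0460). It passed without aged replicate 2 but not without aged replicates 1 and 3 (limma adjusted p = 0.0630 and 0.0950) or young replicates 1, 2 and 3 (0.152, 0.145 and 0.155).

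Tbxa2r, the thromboxane receptor, read 0.664, 0.695 and 0.620 in aged samples, against 0.892, 1.16 and 1.17 in young samples. It fell by 0.69 ± 0.14 (SE, limma adjusted p = 0.0373). Without aged replicates 2 and 3 its limma adjusted p was 0.106 and 0.110, and without young replicates 2 and 3 it was 0.131 and 0.167. Ptgds, a prostaglandin D synthase, read 1.85, 1.43 and 1.58 in aged samples, against 2.36, 2.57 and 3.39 in young samples. It fell by 0.76 ± 0.17 (SE, limma adjusted p = 0.0498), at the edge of the threshold. That p was 0.173 and 0.140 without aged replicates 2 and 3, and 0.0804, 0.115 and 0.167 without young replicates 1, 2 and 3, by the same limma fit. Both genes had ages that did not overlap. Alox5, the leukotriene-forming lipoxygenase, had a difference of 0.81 and did not pass (limma adjusted p = 0.0615), though it passed with median centring (0.0126) and among probes above background on all 6 arrays (0.0290).

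Because Cyp4a12a is male-biased in mouse kidney, other sex-biased kidney genes were read as well. Of 18 male-biased genes 16 were tested, and 1 rose and 15 did not pass, with a median of -0.03. Cyp2d9, a male-biased steroid hydroxylase, read 14.2, 17.2 and 20.8 in aged samples, against 7.12, 6.24 and 5.94 in young samples. It rose by 1.42 ± 0.16 (SE, limma adjusted p = 0.00537), with no overlap, and missed the threshold without young replicate 3 (0.0575). Kap, the androgen-regulated kidney protein, read 11.4, 4.24 and 6.44 in aged samples, against 10.2, 14.0 and 9.91 in young samples. Its ages overlapped, and the difference of -0.73 ± 0.33 did not pass (SE, limma adjusted p = 0.308). Without aged replicate 1 the difference was -1.10 and passed (limma adjusted p = 0.0406), and without aged replicate 2 it was -0.39. Acsm3 had -0.41 and Cyp2j13 0.30, neither past the threshold.

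The 8 female-biased genes, all tested, gave 1 that rose, 1 that fell and 6 that did not pass, with a median of -0.23, and leaving out aged replicate 2 or 3 gave medians of -0.10 or -0.35. Slc7a12, an amino acid transporter, read 2.52, 2.20 and 2.59 in aged samples, against 0.861, 0.433 and 0.589 in young samples. It rose by 2.01 ± 0.23 (SE, limma adjusted p = 0.00544), and missed the threshold without young replicate 3 (0.0633). Akr1c18, a steroid reductase that inactivates progesterone, read 3.11, 1.44 and 1.29 in aged samples, against 7.66, 8.29 and 8.23 in young samples. It fell by 2.17 ± 0.30 (SE, limma adjusted p = 0.0110), and the ages of both genes were apart. Akr1c18 missed the threshold without aged replicate 2 (limma adjusted p = 0.0564) and without young replicate 3 (0.0891). Ttr had -0.32 and Slc22a29 -0.35, which did not pass.

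**Figure D4:**
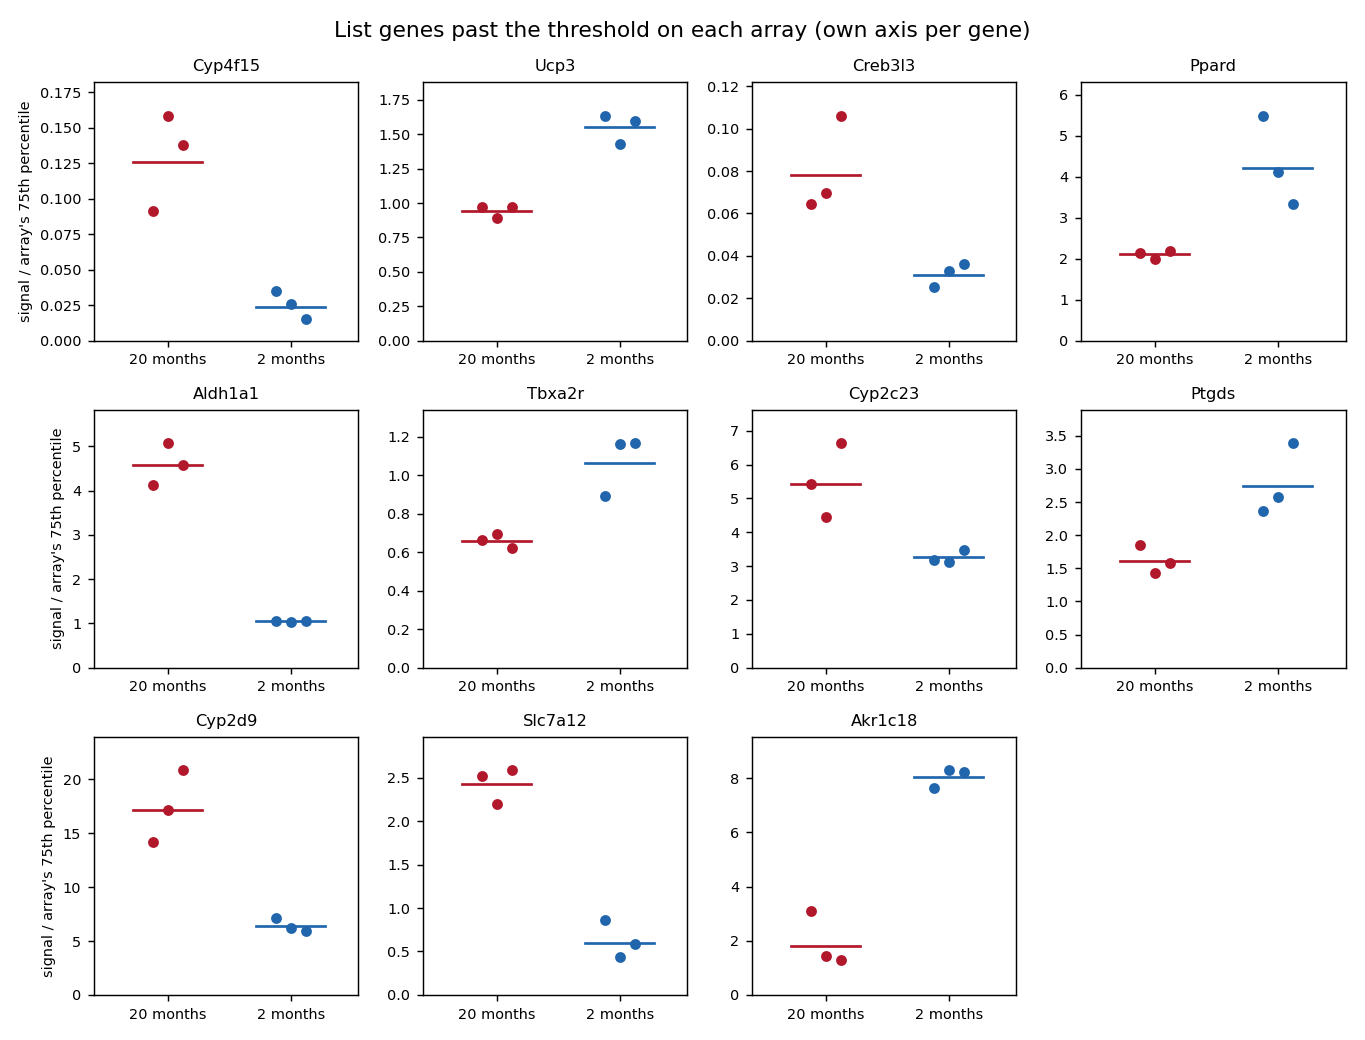
Processed signal divided by the array's 75th percentile (vertical axis, linear and starting at 0, own scale for each panel) for the 11 list genes past limma's adjusted p of 0.05, in the 3 samples at 20 months and the 3 at 2 months. Points are arrays and lines are means taken on the log2 scale. The ages are apart for all 11 genes, and Ppard spreads less at 20 months than at 2 months.

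The calls of these 11 genes were not equally firm. Aldh1a1 passed in all 16 alternatives tried. It was the 1 gene of the 11 still called without young replicate 3, and also with no filter on dim probes. Without aged replicate 2, limma called 4 of them, Aldh1a1, Cyp2c23, Cyp2d9 and Slc7a12. The direction of 10 of the 11 held in all alternatives that gave a value, the exception being Ucp3.

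For each member the genes whose pattern over the 6 arrays was most like it were found among 12627 genes above background on every array. Members and genes with clone, predicted, pseudogene or accession names were left out of these. With 6 arrays that share their scaling and fall into 2 ages, high coefficients are common, and between 119 and 422 genes passed a Pearson r of 0.9 with each member. Cyp4a12a was most like Cygb (r = 0.997), Igf1r and Dse. Cyp4a12b was most like Cxcr6 (r = 0.999), Ly86 and Qpct, and Cyp4a14 was most like Zbed5 (r = 0.997), Tmem117 and Slc52a3. The closest to Cyp4a10 were Ndufb6 (r = 0.996), Lrp10 and Msrb2, those to Cyp4a31 Shmt1 (r = 0.997), Dguok and Elac2, and those to Cyp4a32 Psmd3 (r = 0.996), Abca2 and Proca1. Cyp4b1 was most like Selenop (r = 0.983), Zpr1 and Sirt6.

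Cxcr6 and Ly86 are known from immune cells. The 5 tested macrophage markers had a summed level of 56.0 to 68.3 in aged and 47.1 to 55.0 in young samples, all differences above 0, 0 called by limma and 3 at an unadjusted p under 0.05. The 7 endothelial markers had 24.6 to 27.4 in aged and 24.3 to 25.7 in young samples, with 0 called and 0 at an unadjusted p under 0.05. Over all genes, 2488 of 14542 tested had an unadjusted limma p under 0.05, and 47.1% had a difference above 0. The part of immune cells in the Cyp4a12b pattern was not tested.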

How the data were processed

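Signal intensity per spot was deposited as scanner output, background-subtracted and detrended within each array by Agilent Feature Extraction, per the file headers. The value table deposited by the authors is on the log2 scale and follows log2 processed signal minus the array's 75th percentile closely but not exactly (r of at least 0.999998 with own values; median absolute difference per array 0.00497 to 0.00899, largest for any probe 1.55; column medians -3.96, -4.17 and -4.23 on aged and -3.97, -4.05 and -4.23 on young arrays). Labelling was from random primers, per the labels, and which strand gave the signal was not examined. Control and outlier-flagged spots were left out (0 member spots flagged), spots were averaged per probe on the log2 scale, and the 75th percentile of each array was subtracted. A gene was read by its probe with the highest mean and tested where every array of 1 age or both was well above background, with limma 3.58.1 (lmFit and eBayes, two-sided, Benjamini-Hochberg, threshold 0.05) in R 4.3.3. Symbols came from RefSeq: 26762 probes had 1, 0 had several and 28919 had none. Named were all members, list genes past the threshold or with the smallest p, defining regulators, textbook targets chosen after their values were seen, and 3 like genes per member; a few genes of this rule are not reported here. Members and lists were chosen with earlier results of these data known. The fit was tested on simulated data.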

Additional observations from a re-analysis of the deposited data

How the results depend on the processing

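Every member probe kept the sign of its difference in each alternative that gave a value for it, and the size of 1 moved by more than its spread, Cyp4a12a under normexp (0.81). Changing the filter on dim probes, or using the replicate number as a block, cannot alter a member difference. Those alternatives therefore add nothing on the signs. The number of member genes higher in aged kidney stayed at 2, and the member median ranged between -0.34 and -0.12 when 1 array was left out. The 517 genes called in limma's main comparison (300 higher, 217 lower) became 289 (197 and 92) with normexp, run on the median spot signal, 802 (367 lower) with median centring and 16 (15 and 1, with 1 list gene) with no filter on dim probes. With median centring Aldh1a1 had nearly the main difference, 2.17 against 2.12, but a limma adjusted p of 1.42e-09 against 0.000336. Passing the threshold with median centring is therefore not like passing it in the main fit. Leaving out 1 array gave 80 to 936 calls, 68 to 358 higher and 12 to 578 lower, and 1 to 12 of the list genes. Calls numbered 936, 167 and 342 without aged replicates 1, 2 and 3, and 176, 251 and 80 without young replicates 1, 2 and 3. Ucp3 turned to 0.25 (limma adjusted p = 0.821) with the mean of its probes. With the replicate number as a block, 299 genes were called (177 higher, 122 lower). Deviations from the age mean correlated at 0.0622, -0.0917 and 0.102 for same-numbered samples, and between -0.123 and 0.0680 for differently numbered ones. With 3 arrays per age such deviations constrain each other, so these values cannot settle whether the numbers pair the samples. Over the alternatives, Ptgds missed the threshold in 12 of 16. The medians of the arachidonic acid and male-biased lists lay near 0 and changed sign when 1 array was left out (-0.07 to 0.04 and -0.09 to 0.02). The slide block was not run because all arrays lay on 1 slide.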

Other observations

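Some Cyp4 probes entered none of the comparisons, most because they were dim, and their processed signals before scaling are given as values. Cyp4a29, the neighbour of Cyp4a12a, read 78.5, 57.8 and 34.6 in aged samples, against 139, 86.5 and 41.3 in young samples, and was above background on 0 aged and 2 young arrays. Cyp4a30b read 154, 70.1 and 44.1 in aged samples, against 18.1, 17.3 and 16.2 in young samples, and was above background on 1 aged and 0 young arrays. The Cyp4b1-ps2 transcribed pseudogene, which lies between Cyp4a31 and Cyp4a32, read 1642, 390.4 and 345 in aged samples, against 873, 1018 and 508 in young samples, and was above background on all arrays but is in none of the lists. Its 3 aged samples span a wider range than its 3 young ones, and the ages overlap. Cyp4f39 read 14.7, 283 and 36.3 in aged samples, against 18.7, 10.2 and 17.6 in young samples, with only aged replicate 2 above background. Cyp4f37 and Cyp4x1 were above background on no array. Even so, Cyp4f37 read 15.4, 21.5 and 40.5 in aged samples, against 7.07, 7.98 and 18.9 in young samples. Cyp4x1 read 16.3, 21.7 and 46.9 in aged samples, against 7.58, 10.9 and 16.9 in young samples. Higher aged readings thus also occurred for probes without detected signal.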
